A study of Mus musculus with 6 samples.

Results

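The loci of 10 genes for secreted Wnt antagonists (Wif1, Sfrp1, Sfrp2, Sfrp4, Frzb, Dkk1, Dkk2, Dkk3, Sost and Notum) were examined for accessible chromatin in osteoblasts with and without Fam20c. A region is a stretch where ATAC-seq peaks of the 6 libraries shared 1 bp or more, and a region belonged to a locus when it overlapped the RefSeq span of the gene (GRCm38.p6) extended by 50 kb on both sides. This rule took 82 of the 89410 regions of the series. The genes were listed for their function and not for their values here, though earlier results of these data were known.

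ATAC-seq, in which the Tn5 transposase cuts and tags open chromatin, was done on 3 libraries of OB Fam20c f/f and 3 libraries of OB Fam20c KO, from 50000 cells each. OB Fam20c f/f is an immortalized mouse osteoblast line whose Fam20c alleles are floxed but not recombined, and it carried no other treatment in the labels. In OB Fam20c KO the floxed alleles had been exposed to Cre, delivered by a lentivirus, so each group is 1 cell line and not a set of animals. The data are the authors' peak lists, 1 for each library.

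Wnt proteins signal through Frizzled receptors and the co-receptors Lrp5 and Lrp6, and this signal drives bone formation by osteoblasts. Secreted antagonists act outside the cell in several ways. Wif1 and the secreted Frizzled-related proteins bind Wnt itself. Dickkopf proteins such as Dkk1, and sclerostin (the product of Sost), bind the co-receptors. Notum is an enzyme that takes the lipid off Wnt. In bone, sclerostin comes mainly from osteocytes and is a known brake on bone formation.

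Start sites and the 250 bases before them were found in the RefSeq promoter table (GRCm38.p6) for 6 of the 10 genes (Wif1, Dkk1, Dkk2, Sfrp2, Frzb and Sost). Peaks lay over these 250 bases in all 6 libraries at Wif1, in every library but KO replicate 3 at Frzb, and in no library at the other 4. Over the 32851 windows of the table, 38.2% had a peak in all 6 libraries and 56.1% in none. The sequences of the pair with peaks and of a pair without are shown because the genes part here before any comparison of the groups. They are written from 5′ to 3′ on the strand of the gene, and capitals mark matches, on either strand, to TCAAAG (the core bound by the TCF and LEF factors of the Wnt pathway), TGANTCA (AP-1), TGTGGT (RUNX) or CAGCTG (an E-box).
Wif1, chr10:121033754-121034003, plus strand: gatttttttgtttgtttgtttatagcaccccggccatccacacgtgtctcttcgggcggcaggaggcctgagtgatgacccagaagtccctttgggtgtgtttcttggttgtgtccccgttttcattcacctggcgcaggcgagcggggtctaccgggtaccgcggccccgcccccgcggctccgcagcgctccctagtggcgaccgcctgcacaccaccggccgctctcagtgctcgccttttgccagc
Frzb, chr2:80447397-80447646, minus strand: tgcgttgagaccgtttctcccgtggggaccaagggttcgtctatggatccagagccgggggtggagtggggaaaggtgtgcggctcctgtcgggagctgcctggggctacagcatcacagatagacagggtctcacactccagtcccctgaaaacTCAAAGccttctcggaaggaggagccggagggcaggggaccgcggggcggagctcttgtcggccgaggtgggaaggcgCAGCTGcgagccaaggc
Dkk1, chr19:30549497-30549746, minus strand: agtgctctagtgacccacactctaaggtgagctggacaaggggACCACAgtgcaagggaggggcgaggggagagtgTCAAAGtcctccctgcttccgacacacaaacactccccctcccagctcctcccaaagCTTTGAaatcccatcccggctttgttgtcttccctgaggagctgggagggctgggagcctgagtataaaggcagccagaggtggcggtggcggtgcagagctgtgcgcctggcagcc
Sost, chr11:101967016-101967265, minus strand: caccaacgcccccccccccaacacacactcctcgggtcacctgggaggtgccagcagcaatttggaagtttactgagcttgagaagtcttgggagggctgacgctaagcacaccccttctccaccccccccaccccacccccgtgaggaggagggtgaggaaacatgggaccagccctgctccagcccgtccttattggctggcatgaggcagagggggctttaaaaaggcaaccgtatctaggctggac

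The sequences with peaks were richer in CpG than those of Dkk1 and Sost, the lowest of the 4 genes without a peak there. The observed CpG number divided by the number the base composition predicts was 0.858 at Wif1 and 0.644 at Frzb. It was 0.260 at both Dkk1 and Sost, against a median of 0.374 over all windows. The other two genes with no peak over these bases had higher values, 0.449 at Dkk2 and 0.640 at Sfrp2, the latter near that of Frzb. The TCF/LEF core occurred 2 times at Dkk1 and 1 time at Frzb, and 13.8% of all windows hold it. RUNX matched 1 time at Dkk1 (14.0% of windows), the E-box 1 time at Frzb (13%), and AP-1 at none of the 6 genes (6.75%).

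The lists held 62781 to 74797 peaks in 5 libraries and 32958 in KO replicate 3, and read depth is not part of them. A missing peak means that a place did not pass the authors' threshold in that library, and not that the chromatin was closed. At Fam20c itself, 11 regions lay within 50 kb, of which 6, 5 and 8 had a peak in f/f and 7, 4 and 3 in KO, which does not check a deletion inside the gene. Of 8 osteoblast markers, 6 had a region within 3 kb (Bglap and Ibsp had none), as had 4 of 4 osteocyte markers, 3 of 3 chondrocyte, 2 of 3 adipocyte, 3 of 3 haematopoietic and 3 of 3 endothelial ones, so a peak near a gene did not tell cell types apart here. Nothing in the labels says that the 3 libraries of a group came from separate cultures, so the p-values may measure technical spread only.

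Of the 82 regions at the 10 loci, 60, 57 and 72 had a peak in f/f replicates 1, 2 and 3, and 57, 59 and 25 in KO replicates 1, 2 and 3. The low number was that of KO replicate 3, which had a peak in 30.5% of these regions and in 35.8% of all regions. A peak in all 6 libraries was found in 25 of the 82 regions (30.5%), against 33.4% of all regions. Another 18 (22.0%) lacked a peak in KO replicate 3 alone, against 19.2%, and 13 (15.9%) had a peak in 1 library only, against 19.8%. None of these shares at the loci was far from its background.

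Regions with a peak in 3 of 3 f/f libraries and in none of the KO libraries numbered 3 of 82 (3.66%), near the 3.75% of all regions, and lay at Sfrp2, Sfrp4 and Dkk3. The opposite pattern, a peak in 3 of 3 KO and in no f/f library, occurred in 0 of 82, where the background is 0.179%. Sost had 1 region with peaks in KO replicates 1 and 2 only, a pattern of 2.72% of all regions. Without KO replicate 3 that region was the single KO-only one at the 10 loci, and the 3 f/f-only regions were the same.

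**Figure D1:**
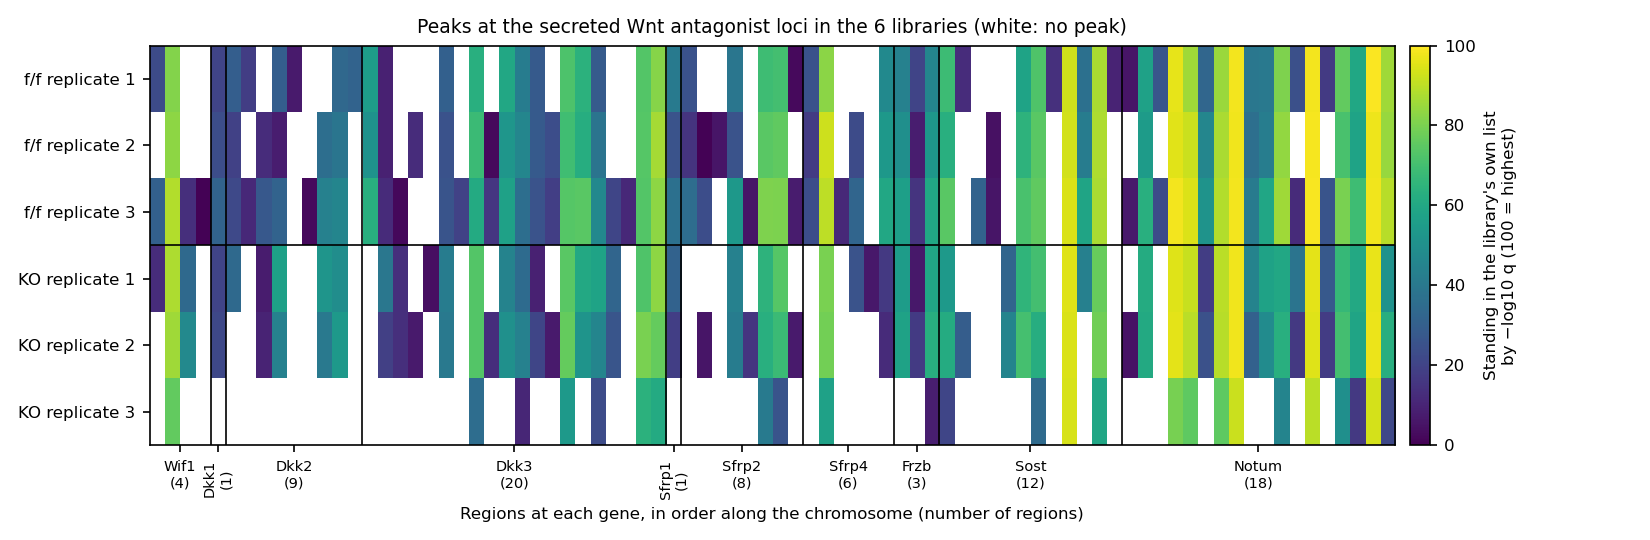
Each column is 1 of the 82 regions, in order along the chromosome within each gene, and each row is a library. Colour gives the standing of the region in that library's own list by −log10 q, from 0 to 100 as the highest, and white means no peak. KO replicate 3 has colour in 25 columns and each other library in 57 to 72, and the brightest columns are at Wif1, Sost and Notum.

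The number of regions differed widely between the genes. Dkk3 had 20, Notum 18, Sost 12, Dkk2 9, Sfrp2 8, Sfrp4 6, Wif1 4 and Frzb 3, while Dkk1 and Sfrp1 had 1 each. A region over the gene span itself was found in 25 cases, and 31 of the 82 regions lay in or nearer to another protein-coding gene, most of them at Notum and Sost. The map of peaks by region and library shows that the high standings at Notum and Sost came largely from such neighbours.

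The strength of a region was described on 2 scales. The own-list standing is the percentile of its highest peak among all peaks of the same library by the authors' −log10 q, with 100 as the highest. In 24 of the 25 regions that all 6 libraries shared at the loci, the own-list standing was lowest in KO replicate 3, whose list is the shortest (Sost region 9 was the exception). Own-list standings are therefore given as a description, and the main test used the shared standing. For the shared standing, each library's ranks were taken again over the 29849 regions that no library lacked. limma was fitted to all 29849, and p-values were adjusted over all of them. Values given without KO replicate 3 are ranks over the regions that the other 5 libraries shared, a wider set.

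Of the 25 shared regions at the 10 loci, 6 were lower in KO at an adjusted p under 0.05, against 11.3% of all shared regions, and 0 were higher, against 12.6%. At an unadjusted p under 0.05, 8 were lower (18.8% of all shared regions) and 2 higher (19% of all). The median difference, KO minus f/f, was -6.68 percentile points at the loci and -0.240 over all shared regions, and 17 of the 25 were below 0, where 51.3% of all were. The groups did not overlap in 9 regions that were lower in KO and in 3 that were higher (background 20.9% and 21.1%). Each such region has an exact two-sided permutation p of 0.1, the smallest that 3 libraries against 3 allow.

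Of the 6 lower regions, 3 were at Notum, 2 at Sost and 1 at Sfrp4, and 1 of them (Notum region 11) lay in the antagonist gene itself. Ranked by fold over the local background in place of −log10 q, 1 of the 25 passed the limma threshold lower in KO (0.63% of all) and 0 higher (0.754%). At an unadjusted p under 0.05 these were 5 (10.3% of all) and 1 (9.85%), and the groups did not overlap in 5 lower regions (13.9%) and 2 higher ones (15.5%). Ranked in the own list, 0 of the 25 passed (limma), with adjusted p of 0.157 to 0.430 for the 6, and 90 of all 29849 shared regions did. At an unadjusted p under 0.05, 6 were lower (10.1% of all) and 0 higher (2.26%).

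The 6 differences did not all shrink where calls were lost. Sost region 1 differed by -16.8 on the main scale, by -23.0 by fold and by -23.1 in the own list. Notum region 11 went from -34.6 to -17.9 and -27.4 in the same order, and Notum region 18 from -52.7 to -39.2 and -41.4. In the own list all 6 stayed below 0, by fold all but Notum region 13 did, and each SE was larger than on the main scale. The own-list sign says little about these 6, because KO replicate 3 was lowest there in 24 of the 25 shared regions. At Sost region 1 the own-list standings were 68.6, 63.2 and 74.4 in f/f and 54.2, 61.6 and 21.0 in KO replicates 1, 2 and 3.

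**Figure D2:**
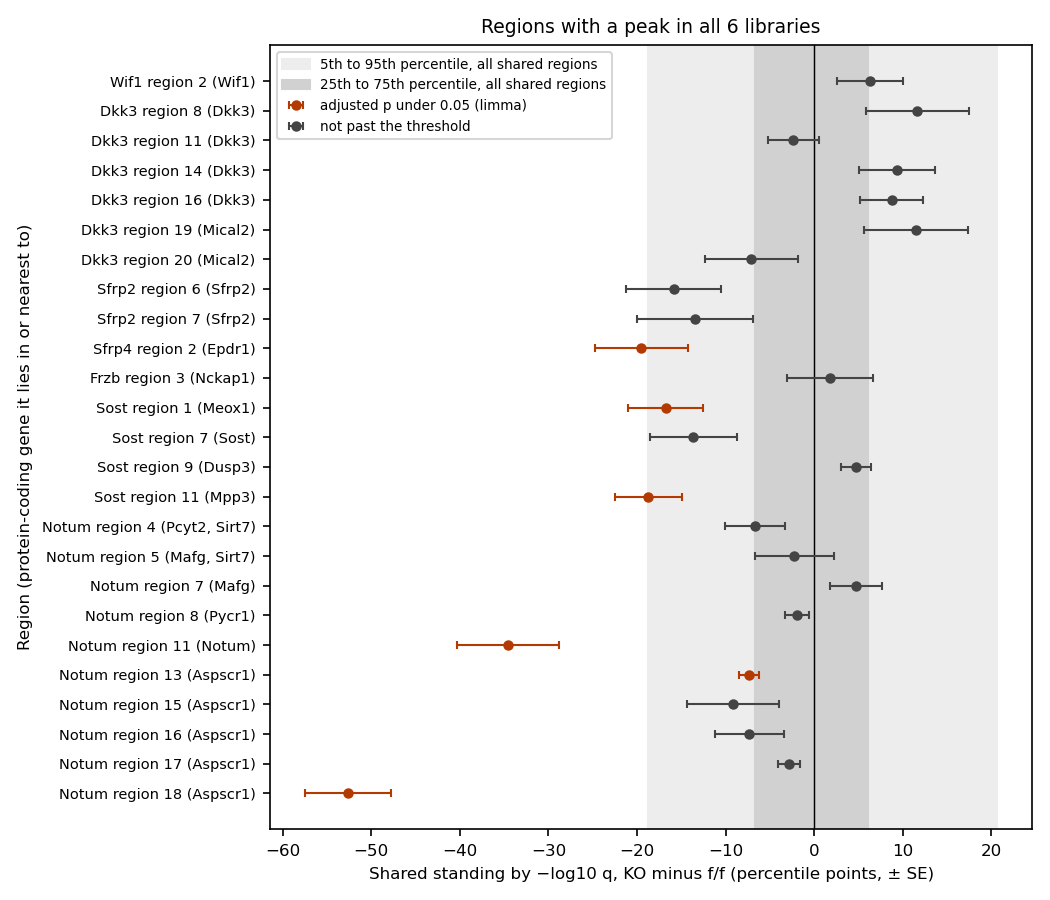
Points give the difference in shared standing by −log10 q, KO minus f/f, in percentile points for the 25 shared regions, with the SE of limma as bars and the nearest protein-coding gene in brackets. The 6 coloured points passed the threshold and all lie below 0, down to -52.7, and the grey bands hold the middle 50% and 90% of all shared regions.

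Wif1 encodes Wnt inhibitory factor 1, which binds Wnt through its WIF domain. Wif1 region 2 (chr10:121033204-121034491) covers the start site and had own-list standings of 81.5, 83.1 and 88.7 in the f/f libraries and of 87.6, 85.6 and 75.8 in the KO libraries. By the mean over the 6 libraries, 83.7, it was the strongest region over the span of any of the 10 genes, and the groups overlapped. Its shared standing was 65.6 ± 5.60 (SD, n = 3) in f/f and 71.9 ± 2.56 (SD, n = 3) in KO, a difference of 6.29 ± 3.77 (SE) that was not past the threshold (limma, adjusted p = 0.255). By fold the difference had the other sign, at -2.86, and without KO replicate 3 it was 3.59 ± 2.43 (SE, limma, adjusted p = 0.320).

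Inside Wif1, 21510 bp from the start site, region 3 was unevenly shared between libraries. It had a peak in f/f replicate 3 (own-list standing 13.4), KO replicate 1 (34.4) and KO replicate 2 (47.0), and none in the other 3 libraries. The KO values were the higher ones, and the region did not enter the fit, which takes regions with a peak in every library. The remaining regions at Wif1 stood at 30.7 or below wherever they had a peak.

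The secreted Frizzled-related proteins carry a cysteine-rich domain like that of the Frizzled receptors and bind Wnt with it. Sfrp1 had 1 region (chr8:23411112-23411789), over the lower end of its span. Its own-list standings were 40.8, 25.7 and 36.8 in f/f and 31.6 and 18.6 in KO replicates 1 and 2, with no peak in KO replicate 3. The ranges overlapped, and without KO replicate 3 the difference in standing, KO minus f/f, was -5.12 ± 5.20 (SE, adjusted p = 0.515 by limma).

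Sfrp2 had 8 regions within 50 kb and none over its span or start site. The nearest, region 4, lay 983 bp past the gene and stood at 39.2, 25.7 and 53.3 in f/f and at 44.0 and 42.1 in KO replicates 1 and 2. Its f/f-only region, region 1 (chr3:83740182-83740708), lay 25042 bp before the gene and was weak, at 25.4, 15.0 and 35.6. The strongest pair, regions 6 and 7, lay 15078 and 22939 bp past the gene.

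Sfrp2 region 6 had shared standings of 36.9, 47.1 and 51.9 in f/f and of 28.0, 24.7 and 35.6 in KO. All KO values were below all f/f values, and the difference of -15.9 ± 5.35 (SE) was not past the threshold (limma, adjusted p = 0.0608). Region 7 differed by -13.5 ± 6.55 (SE), with groups that overlapped (adjusted p = 0.167 by limma), and by -4.55 ± 4.16 (SE) without KO replicate 3 (adjusted p = 0.468). Both were lower in KO by fold too, at -23.4 (adjusted p = 0.160) and -26.9 (adjusted p = 0.298).

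Sfrp4 had 6 regions, and those with the clearest gap between the groups were lower in KO. Its f/f-only region, region 1 (chr13:19590862-19591583), lay 31592 bp from Sfrp4 and 125 bp from Epdr1, with own-list standings of 25.4, 17.2 and 23.5. Region 2 (chr13:19618870-19619978) lay 3197 bp from Sfrp4 and inside the span of Epdr1. Its shared standings were 63.4, 84.3 and 75.2 in f/f and 56.9, 54.3 and 53.2 in KO, so the groups did not overlap.

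The difference at Sfrp4 region 2, from 74.3 ± 10.5 to 54.8 ± 1.91 (SD, n = 3 each), was -19.5 ± 5.26 (SE, limma, adjusted p = 0.0276). It lost the call without f/f replicate 2 or 3 and without KO replicate 1 or 2 (adjusted p up to 0.0941), and without KO replicate 3 the difference was -11.9 ± 3.39 (SE, adjusted p = 0.0333). Region 6, 7177 bp from Sfrp4 and nearest to Nme8, had no peak in KO replicate 3. Its own-list standings were 47.4, 53.1 and 59.8 in f/f and 16.6 and 12.3 in KO replicates 1 and 2, both below every f/f value.

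Around Sfrp4, lower standings in KO were not limited to the locus. Among the 57 shared regions within 2.5 Mb of it, those of the locus left out, the median difference was -11.0 percentile points, the lowest of the 10 loci, whose other medians ran from -4.74 to 2.95. The part of this wider shift in the values at Sfrp4 was not tested. The single region over the Sfrp4 span had a peak in f/f replicate 3 alone, at 11.5.

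Frzb, also called Sfrp3, had 3 regions, all found in the f/f libraries and in KO replicates 1 and 2, and 1 also in KO replicate 3. Region 2 (chr2:80447004-80447822) covers the start site and stood low, at 20.6, 7.91 and 15.2 in f/f and at 6.29 and 17.0 in KO. Region 1, near the other end of the gene, was stronger, at 43.9, 49.9 and 56.5 in f/f and at 55.3 and 57.5 in KO. Region 3, 39203 bp before the start site and nearest to Nckap1, was the shared one and differed by 1.82 ± 4.85 (SE, limma, adjusted p = 0.815). That value depended on KO replicate 3. Without it the region stood at 28.9, 38.1 and 36.5 in f/f and at 45.3 and 49.1 in KO, a difference of 12.7 ± 5.31 with no overlap that was not past the threshold (SE, limma, adjusted p = 0.116).

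Dkk1 encodes the Dickkopf protein best known as an Lrp5 and Lrp6 antagonist. Its only region (chr19:30554387-30554873) lay 4891 bp before the start site, with own-list standings of 20.6, 23.7 and 32.0 in f/f and of 20.4 and 21.5 in KO replicates 1 and 2. KO replicate 1 was just below the lowest f/f value, and KO replicate 2 was inside the f/f range. Ranked without KO replicate 3, both were below every f/f value, by a small difference of -1.23 ± 3.14 (SE, limma, adjusted p = 0.815). There was no peak in KO replicate 3.

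Dkk2, a related protein whose action depends on the setting, had 9 regions and no peak at all in KO replicate 3. Its start site lies between region 2, 1011 bp before it, and region 3, 336 bp after it, and both were weak, at 27.4 or below. Region 4 (chr3:132086973-132087554), 1681 bp after the start site and inside the gene, had own-list standings of 29.8, 7.91 and 32.0 in f/f and of 56.9 and 43.8 in KO replicates 1 and 2. Both KO values were above all f/f values.

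Region 8 (chr3:132211051-132211680), 30747 bp past Dkk2, stood at 33.9, 38.9 and 45.6 in f/f and at 48.8 and 53.7 in KO replicates 1 and 2. It showed the same order of the groups as region 4. Region 7 (chr3:132207593-132207924), 27289 bp past Dkk2, did not show that order. It stood at 36.0 and 43.8 in f/f replicates 2 and 3 and at 52.2 and 40.3 in KO replicates 1 and 2, which overlapped. It had no peak in f/f replicate 1. With no peak in KO replicate 3, none of regions 4, 7 and 8 entered the comparison over all 6 libraries.

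Dkk3 encodes a divergent Dickkopf protein that differs from Dkk1 in how it acts on the pathway. With 20 regions, 11 of them over its span, it had the most regions of the 10 loci. Its f/f-only region, region 1 (chr7:112085027-112085509), lay inside Usp47, 30510 bp from Dkk3, and had own-list standings of 55.4, 50.9 and 63.0, the highest of the 3 f/f-only regions. It was also the only one left as f/f-only when the same number of peaks was taken from each list.

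Of the 6 shared regions at Dkk3, 4 had a higher mean in KO, but 0 passed the limma threshold and 1 (region 16) had an unadjusted p under 0.05. Region 14 (chr7:112180025-112180804), 20543 bp from the gene, had shared standings of 42.0, 37.7 and 36.7 in f/f and of 45.4, 49.3 and 49.8 in KO. These did not overlap, and the difference was 9.34 ± 4.29 (SE, limma, adjusted p = 0.145). Region 16 did not overlap either, at 3.88, 7.05 and 6.78 against 18.9, 7.15 and 17.9 (adjusted p = 0.106 by limma), and its difference of 8.75 ± 3.56 became 17.8 ± 5.88 (SE, adjusted p = 0.0564) without KO replicate 3.

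The strongest region inside Dkk3 was region 8 (chr7:112142570-112143659), with own-list standings of 63.0, 68.1 and 61.3 in f/f and of 73.3, 73.2 and 35.7 in KO. Its difference in shared standing was 11.7 ± 5.80 (SE, limma, adjusted p = 0.176), and by fold it was 0.036. The highest standings of the locus belonged to regions 19 and 20, nearest to Mical2, with differences of 11.5 and -7.09 that did not pass (limma, adjusted p = 0.188 and 0.361).

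Sost had 12 regions, of which 1 lay over its span and none over its start site. Region 6 (chr11:101963433-101964500), inside the gene, had own-list standings of 58.1, 64.8 and 71.3 in f/f and of 65.5 and 70.5 in KO replicates 1 and 2, which overlapped. Region 7 (chr11:101968419-101969267), 1404 bp before the start site, was the nearest shared one. Its shared standings were 43.0, 47.1 and 41.1 in f/f and 37.5, 23.4 and 29.3 in KO, a difference of -13.7 ± 4.90 (SE) with no overlap that was not past the threshold (limma, adjusted p = 0.0735).

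The 2 regions of the Sost window that passed lay far from the gene. Region 11 (chr11:101997799-101998883), 30784 bp before the Sost start site and 769 bp from Mpp3, stood at 72.7, 73.8 and 68.3 in f/f and at 50.1, 53.4 and 55.1 in KO. The groups lay well apart, by -18.7 ± 3.76 (SE, limma, adjusted p = 0.00846). Region 1 (chr11:101919332-101920102), nearest to Meox1 and 42356 bp from Sost, went from 34.3 ± 5.44 to 17.5 ± 4.12 (SD, n = 3 each), a difference of -16.8 ± 4.28 (SE, limma, adjusted p = 0.0226).

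The call at Sost region 1 was lost without KO replicate 1 or 3 and without f/f replicate 1 or 3 (limma, adjusted p of 0.0659 to 0.0976). Region 5 (chr11:101957572-101957907), 4551 bp past the gene, was the one with peaks in KO replicates 1 and 2 only, at own-list standings of 32.5 and 45.0. The highest region of the window, region 9, lay inside Dusp3 and stood at 92.9 to 95.2 in all 6 lists. Its shared standings were 84.9, 85.9 and 85.8 in f/f and 89.6, 87.9 and 93.1 in KO, higher in KO without overlap by 4.73 ± 1.70 (SE), which was not past the threshold (limma, adjusted p = 0.0745). By fold it was higher by 21.8, also without overlap (adjusted p = 0.290 by limma). Among the 206 shared regions within 2.5 Mb of Sost, the median difference was -4.74.

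Notum encodes a secreted carboxylesterase that inactivates Wnt by removing its palmitoleate. Of its 18 regions, 10 had a peak in all 6 libraries, but 14 lay in or nearer to the neighbours Anapc11, Pcyt2, Sirt7, Mafg, Pycr1 and Aspscr1. In the gene itself, region 11 (chr11:120659840-120661092), at the upper end of the span, had shared standings of 59.0, 65.8 and 64.8 in f/f and of 21.4, 24.4 and 40.1 in KO. Every KO library was far below every f/f library.

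The difference at Notum region 11, from 63.2 ± 3.66 to 28.6 ± 10.0 (SD, n = 3 each), was -34.6 ± 5.77 (SE, limma, adjusted p = 0.00400). Ranked by fold among the shared regions, it fell short of the threshold at -17.9 ± 7.33 (SE, limma, adjusted p = 0.229), and KO replicate 3, at 37.7, came close to the lowest f/f value of 38.3. It kept its call when any 1 library was left out.

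The adjoining Notum region 10 (chr11:120658935-120659765) did not share this pattern. Its own-list standings were 40.4, 42.3 and 59.1 in f/f and 57.6 and 48.2 in KO replicates 1 and 2, which overlapped. Region 9, at the lower end of the gene, overlapped as well, with 39.7, 36.5 and 41.6 against 44.8 and 31.2.

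The largest difference of all 25 shared regions was at region 18 (chr11:120703559-120704650), 42366 bp from Notum and inside Aspscr1. It stood at 69.8, 67.3 and 73.0 in f/f and at 11.8, 24.1 and 16.2 in KO. The difference was -52.7 ± 4.84 (SE, limma, adjusted p = 0.000366), and it was the only one of the 6 that also passed by fold, at -39.2 ± 6.55 (SE, limma, adjusted p = 0.0439). Over all shared regions, the 5th percentile of the differences was -18.7.

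Region 13 (chr11:120672650-120673877), at the end of Aspscr1 towards Notum, was among the highest in every list. Its shared standings were 96.0, 97.3 and 97.3 in f/f and 90.8, 89.1 and 88.5 in KO, a small gap of -7.37 ± 1.17 (SE) with little spread (limma, adjusted p = 0.00323). Without KO replicate 3 it was -4.37 ± 0.890 (SE, adjusted p = 0.00857). By fold the sign turned, to 0.915 (limma, adjusted p = 0.926). Between regions 13 and 18 inside Aspscr1, regions 15, 16 and 17 differed by -9.15, -7.32 and -2.82 and did not pass (limma, adjusted p = 0.229, 0.202 and 0.135). At region 17 the groups did not overlap, with KO lower, and by fold its sign turned too, to 9.24 (limma, adjusted p = 0.359).

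On the other side of Notum, the 4 shared regions in Pcyt2, Sirt7, Mafg and Pycr1 differed by -6.68 to 4.74, and 0 of them passed the limma threshold or had an unadjusted p under 0.05. Region 8, inside Pycr1, had the highest mean own-list standing of the locus, 97.03. It differed by -1.95 ± 1.36 (SE, limma, adjusted p = 0.329). The median of the 169 shared regions within 2.5 Mb of Notum was -2.25. Region 18 is the last of the window, so no single region beyond it was described. By the size of their difference, regions 11 and 18 stood out from the other shared regions of the window, a description and not a test. The plot of standings along the locus shows this.

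**Figure D3:**
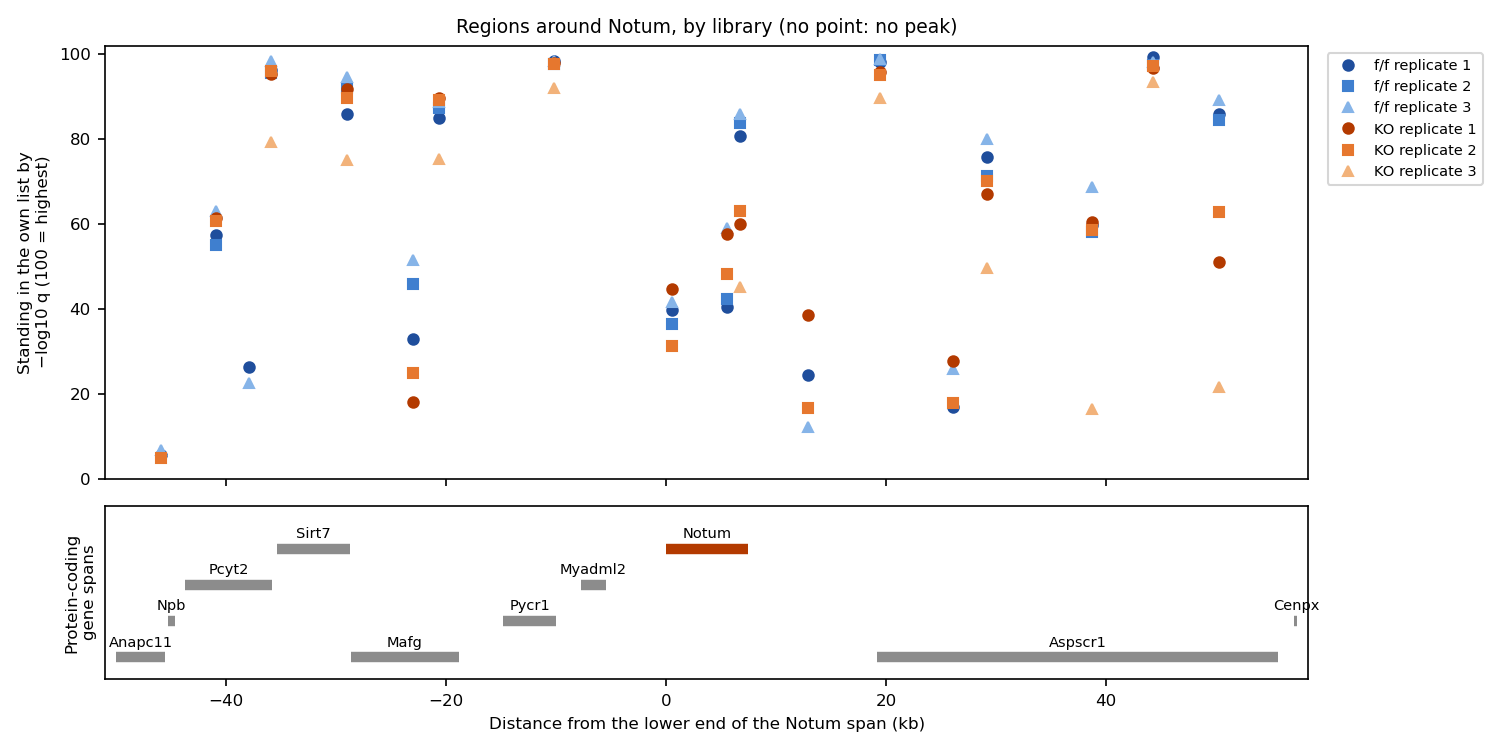
Points give the own-list standing by −log10 q of the 18 regions around Notum in each library, placed by the distance of their centre from the lower end of the Notum span in kb, with the spans of protein-coding genes underneath. At the upper end of Notum and at the far end of Aspscr1, the 3 f/f libraries (80.7 to 89.2) stand above the 3 KO libraries (21.6 to 63.1), while at most other regions KO replicates 1 and 2 mix with f/f or lie close to it.

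**Figure D4:**
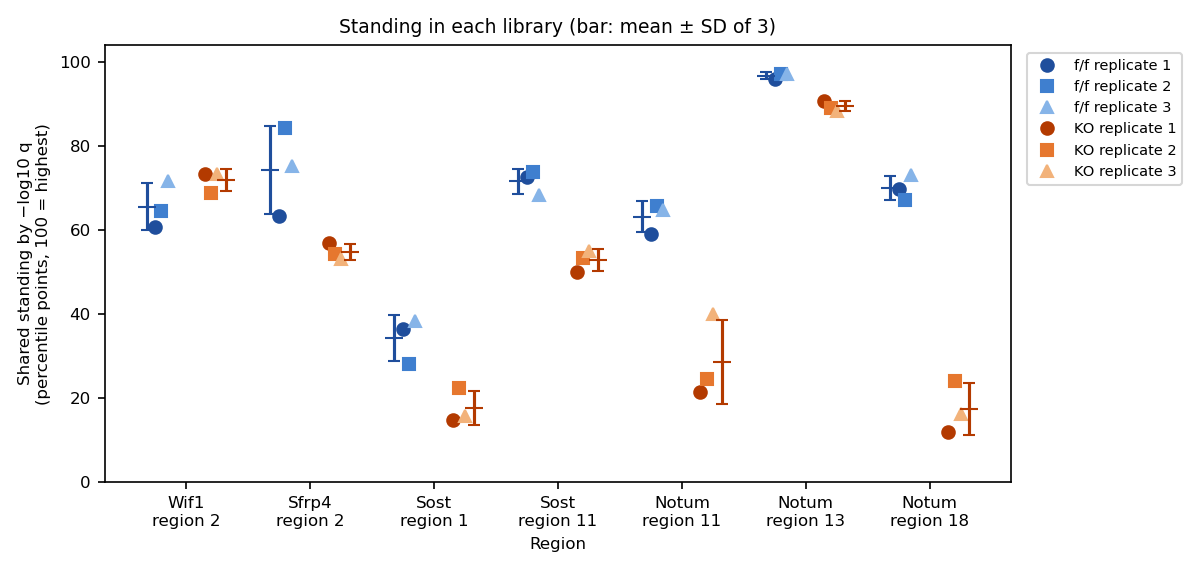
Points give the shared standing by −log10 q in each library for the region over the Wif1 start site and the 6 regions past the limma threshold, and bars give the mean ± SD of 3 libraries. At Wif1 region 2 the groups overlap, and at the other 6 every KO point is below every f/f point.

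KO replicate 3 kept 18 regions at the 10 loci out of the comparison, so it was repeated without that library. Regions with a peak in the other 5 libraries were ranked anew, 46992 in all and 43 at the loci. In KO, 7 were lower (10.9% of all) and 3 higher (11.6% of all) at an adjusted p under 0.05 by limma with 3 libraries against 2. The groups did not overlap in 15 lower regions (26.3% of all) and in 12 higher ones (25.6%). The 3 higher ones were all at Dickkopf genes, and each lacked a peak in KO replicate 3. Dickkopf regions that did not pass went both ways. Groups did not overlap and KO was lower at Dkk1 region 1 and Dkk3 regions 10 and 15. They did not overlap and KO was higher at Dkk3 regions 2, 8, 14 and 16. The difference at Dkk3 region 15 was -13.0 ± 5.48 (SE, limma, adjusted p = 0.119).

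Dkk2 region 4 stood at 13.7, 1.49 and 7.21 in f/f and at 42.1 and 26.2 in KO on this scale. It was higher in KO by 26.7 ± 5.78 (SE, limma, adjusted p = 0.0112). Dkk2 region 8 was higher by 15.6 ± 4.74 (SE, limma, adjusted p = 0.0420). Dkk3 region 6 (chr7:112134237-112134742), inside the gene, was higher by 13.9 ± 4.34 (SE, limma, adjusted p = 0.0467).

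Of the 7 lower regions, 5 were among the 6 named before, with Sost region 1 the one that was lost. The other 2 were Sfrp4 region 6 and Notum region 6. Sfrp4 region 6 stood at 31.1, 38.5 and 37.0 in f/f and at 4.36 and 2.44 in KO, a difference of -32.2 ± 4.61 (SE, limma, adjusted p = 0.00184). Notum region 6, inside Mafg, differed by -16.8 ± 4.89 (SE, limma, adjusted p = 0.0360).

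**Figure D5:**
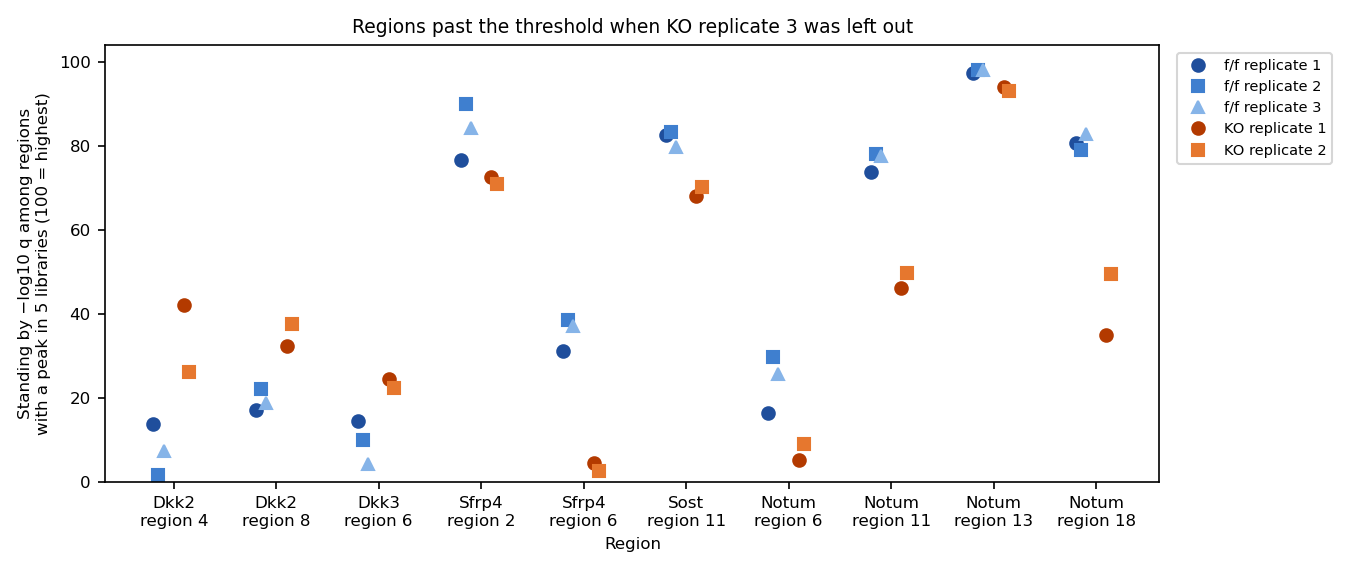
Points give the standing by −log10 q among the regions with a peak in the other 5 libraries, for the 10 regions at the loci past the limma threshold when KO replicate 3 was left out. The 3 on the left, at Dkk2 and Dkk3, are higher in KO, and the 7 on the right, at Sfrp4, Sost and Notum, are lower.

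Counted by gene over all 6 libraries, 3 of the 10 antagonists (Sfrp4, Sost and Notum) had a region lower in KO within 50 kb, and 26.8% of all protein-coding genes did. None of the 10 had one that was higher, where 28.2% of genes did. An f/f-only region lay within 50 kb of 3 of 10, against 22% of genes, and a KO-only region of none, against 1.29%. Among 12 other antagonists of the pathway, including the Kremen receptors and the ligases Znrf3 and Rnf43, 4 had a lower and 3 a higher region. The counts were 9 and 8 of 19 Wnt ligands, 7 and 8 of 22 receptors and agonists, and 7 and 8 of 15 intracellular genes. Fam20c itself had 1 f/f-only region within 50 kb, and of its 3 shared regions 1 was higher and 0 lower in KO.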

How the data were processed

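The authors trimmed the reads, aligned them to mm10 with BWA and called the peaks of each library on its own with MACS2 2.1.2, keeping those with a q-value up to 0.05. The deposited lists give for each peak a score for browsers, the fold over the local background as a linear ratio, and the −log10 p and −log10 q. Depth and background differ between libraries and move all of these, so that they were ranked within a list here and never compared directly. How duplicate reads and blacklisted regions were treated is not given in the sources used here. The authors' test on read counts was not repeated, since counts were not analysed here.

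Peaks of the autosomes and of X and Y were joined where they shared 1 bp, and each region took its highest peak in each library. Coordinates are those of GRCm38 (mm10), counted from 1. Gene spans came from RefSeq (GRCm38.p6) and have no strand or exons. The strand and the start site were known for the 6 genes of the promoter table, and Dkk3, Sfrp1, Sfrp4 and Notum have no entry in it. The nearest gene was the protein-coding gene with the nearest span.

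Standings were compared with limma 3.58.1 (trend, both groups sharing 1 estimate of the spread) in R 4.3.3 over all shared regions, with Benjamini-Hochberg adjustment at 0.05, and single regions also with an exact two-sided permutation test over the 20 assignments of 3 of 6 libraries. A region counted as nonoverlapping when every library of one group was above every library of the other. Python 3.11.15, numpy 2.4.6, pandas 2.3.3 and scipy 1.17.1 were used. The fit was also run on simulated standings with large shifts and a common spread, which does not check it on lists as unequal as these.

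The regions described are those over or nearest to the start site or span, the 2 with the highest mean own-list standing at a gene, the group-specific ones, those with peaks in KO replicates 1 and 2 only, and those past the threshold. Others were added after their values were seen. Among them are Dkk2 regions 2 and 3, Dkk3 regions 2, 10 and 15, Notum regions 9 and 10 and neighbours of a named region. The genes, lists and tests were chosen with earlier results of these data known. Groups and replicate numbers came from the labels, and all 6 libraries entered unless one is named as left out. The alternatives were another overlap, another q threshold, equal peak numbers, other extensions of the spans, the nearest gene only, a peak in 2 of 3 libraries, ranks by fold or in the own list, normal scores, each library left out in turn and the replicate number as a block.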

Additional observations from a re-analysis of the deposited data

How the results depend on the processing

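The counts at the 10 loci moved with the size of the window, with the ranking and with the libraries that entered. With spans extended by 3, 10 and 100 kb in place of 50 kb, there were 28, 40 and 146 regions, of which 0, 0 and 7 were only in f/f and, at 100 kb, 1 only in KO. Past the limma threshold there were then 1, 2 and 8 lower and, at 100 kb, 3 higher in KO, and nonoverlapping groups were found in 2, 3 and 16 lower and 0, 0 and 8 higher regions. Where the antagonist had to be the nearest gene, 51 regions were left, 9 of them shared, with 1 region only in f/f. By limma 1 was lower, and the groups did not overlap in 3 lower and 2 higher ones. Equal peak numbers left 1 f/f-only region, and a peak in at least 2 of 3 libraries gave 6 f/f-only regions and 1 KO-only region. The share over all regions is not given for these settings, nor the number of shared regions for the other extensions. Such counts show only how the results moved, and not whether they differ from the background. Ranks by fold gave 1 region past the limma threshold lower in KO and 5 lower without overlap, and they turned the sign at Notum region 13 to 0.915. Ranks in the own list gave 0 past the threshold and 0 higher without overlap. Only Notum region 18 kept its call by fold, and none of the 6 did in the own list.

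With each library left out in turn, there were 3 to 5 f/f-only and 0 to 1 KO-only regions (3 and 0 with all 6 libraries). The limma threshold was passed by 4 to 7 lower and 0 to 3 higher regions (6 and 0), and the groups did not overlap in 10 to 15 lower and 2 to 12 higher ones (9 and 3), where fewer libraries make separation easier. The 5 f/f-only regions were reached without f/f replicate 2 or KO replicate 1. Among these runs, shares over all regions are given only for the one without KO replicate 3. Beside the 3 higher regions without KO replicate 3, 1 passed without KO replicate 2. Region 11 at Sost and regions 11, 13 and 18 at Notum kept their calls whichever library was left out.

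Same-numbered libraries did not deviate together (correlations of 0.0678, -0.105 and -0.124), so the numbers were not taken as pairs. With the replicate block, 6 regions were lower and 0 higher, as without it, and of all shared regions 6048 passed in place of 7132. An overlap of 50% of the shorter peak, a −log10 q of 5 or more and normal scores moved none of the limma counts by over 1.5 times. Read depth is not part of the lists and did not enter the comparison. In the paper's supplement, KO replicate 3 has fewer uniquely mapped reads than every other library except f/f replicate 1. Its share of uniquely mapped reads is the lowest of all. Whether a weak peak was missing from a list for lack of reads was not tested.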
